A study of Mus musculus with 6 samples.

Results

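The genes described are the core machinery that makes microRNAs and lets them silence messages: the 4 Argonautes Ago1, Ago2, Ago3 and Ago4, the 3 TNRC6 scaffolds Tnrc6a, Tnrc6b and Tnrc6c, and the processing genes Drosha, Dgcr8 and Dicer1. These 10 genes were picked by name from the 54532 genes of the count table, and all 10 passed the count filter. They were measured by bulk RNA sequencing of mouse dorsal root ganglia, which house the cell bodies of sensory neurons, in 3 libraries from Ash1l+/- mice and 3 from wild-type littermates. Ash1l encodes a histone methyltransferase. The labels state neither the structure of the Ash1l allele, nor the ages of the mice, nor whether 1 animal gave each library. The p-values therefore reflect the spread among libraries alone, and that spread may be technical.

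A microRNA begins as a hairpin within a long nuclear transcript. Drosha, an RNase III enzyme, cuts the hairpin out together with its RNA-binding partner Dgcr8, and Dicer1 trims it in the cytoplasm to a short duplex. An Argonaute keeps 1 strand of the duplex as its guide, and a TNRC6 protein bound to the Argonaute recruits the enzymes that shorten the poly(A) tail, remove the cap and block translation of the paired message. Ago2 is the Argonaute known for cutting a fully paired target. In sensory neurons the pathway is known to act in axons as well as in cell bodies.

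The title of the study names let-7b, so its hairpin and mature strand are shown as an example of what these enzymes handle. Both come from RefSeq on GRCm38.p6, at chr15:85707319-85707403 and chr15:85707325-85707346 on the plus strand. In the hairpin the capitals mark the mature strand that Drosha and Dicer1 release, and in the mature strand they mark the seed, bases 2 to 8, which pairs with targets.
let-7b hairpin: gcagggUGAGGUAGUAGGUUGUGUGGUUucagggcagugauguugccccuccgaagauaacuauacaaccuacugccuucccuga
let-7b-5p: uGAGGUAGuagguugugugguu

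The reverse complement of that seed followed by A, CTACCTCA, was searched on the message strand in the 3′ UTR of the longest coding transcript of each gene in GENCODE M21. It was present in 2 of the 10 genes, Ago2 and Ago3, once each. The sites are shown with their flanks and the match in capitals. They are shown because both genes are among those described below as higher in Ash1l+/- when WT replicate 2 is left out. Tnrc6a and Tnrc6b, described in the same way, lack this match.
Ago2 site, chr15:73097971-73098000, minus strand, GRCm38: acaatgtggatCTACCTCAgttaaacagtt
Ago3 site, chr4:126335029-126335058, minus strand, GRCm38: cctgccctcacCTACCTCAccaagtcccct
These letters occurred in 3.58% of 13994 3′ UTRs of tested protein-coding genes and in 27.7% of the 47 that have at least 10000 bases. A 3′ UTR of that length is found in 3 of the 10 genes, Ago2, Ago3 and Tnrc6b. Counting also the shorter matches CTACCTC and TACCTCA, 6 of the 10 genes had a match, which was found in 16.8% of the 13994 and in 87.2% of the 47 long ones. Of the 6 genes, Ago2, Ago3 and Tnrc6b are among those long ones, so the count cannot be read against the share of all 3′ UTRs. The libraries do not measure mature microRNAs, and a match is not evidence that a site is used.

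Total counts ranged from 17209294 to 20545722 per library. Levels are CPM, the usual depth-scaled read count, with TMM (trimmed mean of M-values) scaling factors, and fold changes compare Ash1l+/- with wild type. Ash1l itself stood at 60.9, 30.9 and 54.4 CPM in the wild types (replicates 1, 2 and 3, the order used throughout). In Ash1l+/- replicates 1, 2 and 3 it stood at 66.5, 66.5 and 68.9 CPM, above every wild type. Its log2 fold change was 0.46 (adjusted p = 0.396 in edgeR) with 6 libraries and 0.22 (adjusted p = 0.0593) without WT replicate 2. The level was thus not lower under the Ash1l+/- label and does not check the labels. WT replicate 2 stood apart: its log2 CPM correlated across genes with the other libraries at 0.846 to 0.877, against 0.981 to 0.992 among the other 5, and the fold changes are therefore given with all 6 libraries and with the 5 without it. All 10 sensory neuron markers examined had reads in every library, and their summed CPM was 10964 to 11227 in Ash1l+/-, 11596 to 11647 in the wild types other than replicate 2, and 24179 in WT replicate 2.

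Per kilobase of gene length, which allows levels of different genes to be compared, Drosha was the highest of the 10. Its level lay between 12.9 and 14.7 CPM per kilobase over the 5 libraries without WT replicate 2. Ago2 followed at 5.79 to 7.66 CPM per kilobase and Tnrc6a at 4.96 to 6.25, 2 ranges that overlap. Tnrc6c at 3.55 to 4.09, Ago1 at 3.14 to 4.02, Ago3 at 2.50 to 3.95 and Dicer1 at 2.92 to 3.37 formed a middle group, in which each range overlaps the next. Tnrc6b at 2.21 to 3.09 and Dgcr8 at 2.18 to 2.68 CPM per kilobase came next, again overlapping. Both ranges also overlap that of Ago3, so these genes are not set apart from the middle group. Ago4 was lowest, at 0.963 to 1.30, apart from all the others. The deposited gene lengths count every annotated exon, so genes with long optional exons or UTRs have low values on this scale.

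The question put to the design was whether the machinery differs in ganglia with 1 altered Ash1l copy. With all 6 libraries none of the 10 genes passed edgeR's quasi-likelihood test at an adjusted p of 0.05, and 1 of 10, Ago3, had an unadjusted p below 0.05. Over all 16032 genes tested 0% passed the adjusted threshold and 10.6% the unadjusted one. DESeq2 called 0 of the 10 and 0.218% of all genes, and limma-voom 0 of the 10 and 0% of all genes. With quality weights, limma-voom called 4 of the 10 and 26.1% of all genes. Without WT replicate 2, 4 of the 10 rose, namely Ago2, Ago3, Tnrc6a and Tnrc6b, none fell and 6 did not pass. Over all 16395 genes tested in those 5 libraries 9.39% rose and 10.4% fell. When each library's trends along gene length and GC content were removed, 0 of the 10 passed in the same 5 libraries, where 3.14% of all genes rose and 4.15% fell.

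**Figure D1:**
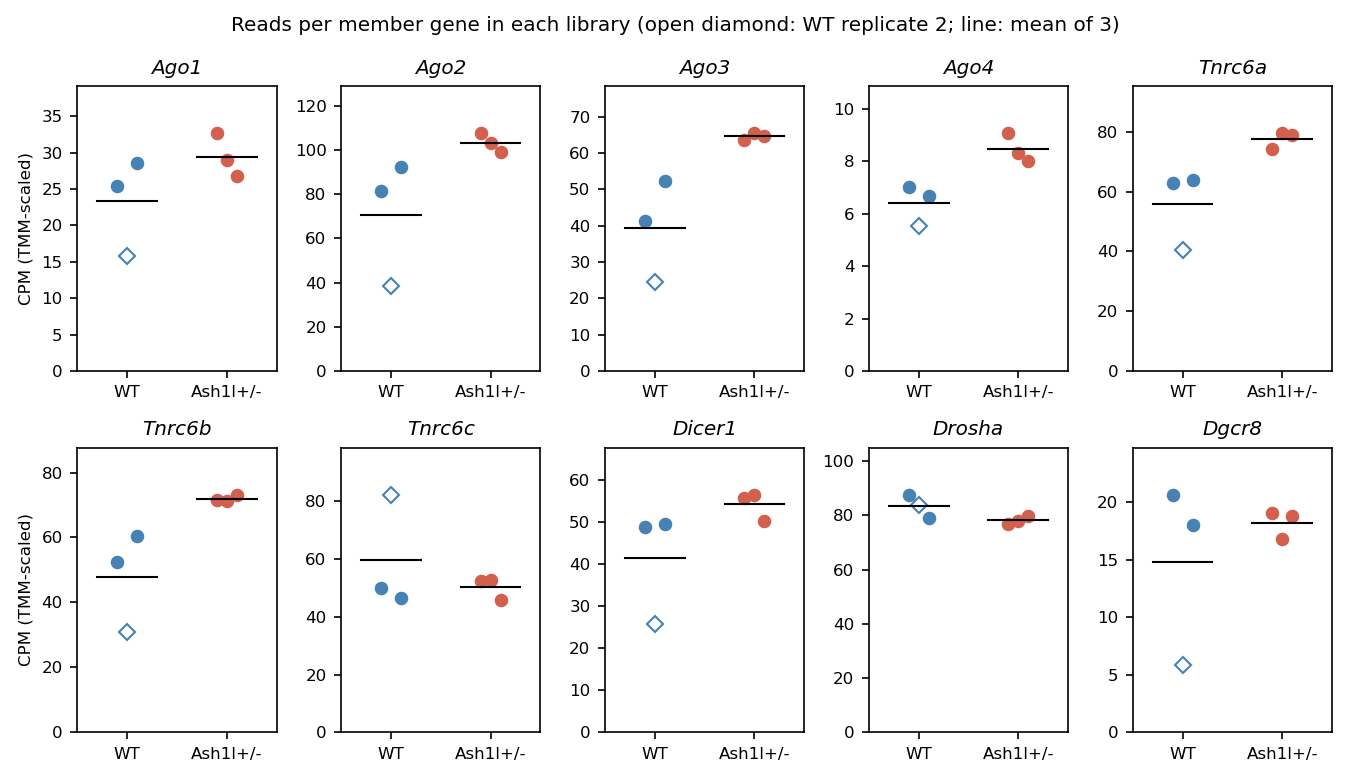
TMM-scaled CPM of the 10 genes (vertical axes, each from 0) in the 3 WT and 3 Ash1l+/- libraries, with 1 point per library, an open diamond for WT replicate 2 and a line at the mean of 3. WT replicate 2 is the lowest of the 6 libraries in 8 genes, the highest in Tnrc6c and within the other wild types in Drosha.

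Among the Argonautes, Ago3 had the largest fitted difference with 6 and with 5 libraries. That order did not hold after removal of the trends, where Ago3 was at 0.12 on the log2 scale with 6 libraries, below Ago2 (0.20), Ago1 (0.20) and Ago4 (0.16), and with 5 libraries below Ago4. Nor did it hold without both WT replicates 1 and 2, where Ago4 was at 0.34 and Ago3 at 0.30. Ago3 (ENSMUSG00000028842; chromosome 4, 126331704 to 126429556, minus strand) stood at 41.4, 24.4 and 52.2 CPM in WT and at 63.5, 65.4 and 64.8 CPM in Ash1l+/- replicates 1, 2 and 3. The Ash1l+/- libraries lie close together above all wild types, while the wild types spread widely. Group means were 39.3 ± 14.0 CPM for WT and 64.6 ± 0.952 CPM for Ash1l+/- (SD, n = 3). In log2 terms its groups differed by 0.72 (SE 0.28, adjusted p = 0.385 in edgeR) with 6 libraries. It was 0.47 (SE 0.09, adjusted p = 0.00221) with 5. Without WT replicate 1 as well, which leaves 1 wild type that is assumed to vary like the other group, it was 0.30 (adjusted p = 0.105).

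Ago2 (ENSMUSG00000036698; chromosome 15, 73095844 to 73184935, minus strand) showed the same order of groups with a smaller difference. The wild types held 81.3, 38.6 and 92.4 CPM and the Ash1l+/- libraries 107, 103 and 99.1 CPM, in replicate order. WT replicate 2 held less than any other library, and the highest wild type was below the lowest Ash1l+/- library. In log2 terms the groups differed by 0.54 (SE 0.33, adjusted p = 0.402 in edgeR) with 6 libraries and 0.25 (SE 0.08, adjusted p = 0.0334) with 5. That call was lost when WT replicate 1 (adjusted p = 0.415), Ash1l+/- replicate 1 (0.051) or Ash1l+/- replicate 2 (0.0914) was also left out. Of the gene's span, 1711 bases are shared with Chrac1 on the opposite strand, whose count was 726 in WT replicate 2 and 206 to 306 elsewhere. Without strand marking, which this kit does not provide, reads from opposing genes cannot be told apart.

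Ago1 and Ago4, which lie next to Ago3 on the same strand of chromosome 4, did not pass in either comparison. Ago1 (ENSMUSG00000041530; 126435012 to 126468583) was at 25.5, 15.8 and 28.6 CPM in WT and 32.6, 29.0 and 26.8 CPM in Ash1l+/-, so the groups overlap. Its log2 fold change with 5 libraries was 0.13 (SE 0.11, adjusted p = 0.44 in edgeR). Ago4 (ENSMUSG00000042500; 126489541 to 126533472) was at 7.01, 5.53 and 6.69 CPM in WT and 9.06, 8.32 and 8.01 CPM in Ash1l+/-. Its groups did not overlap, and its log2 fold change was 0.40 (SE 0.19, adjusted p = 0.385) with 6 libraries and 0.31 (SE 0.16, adjusted p = 0.183) with 5. Ago4 had 74 to 198 reads per library, the fewest of the 10 genes.

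Ago3, Ago1 and Ago4 are arranged head to tail with gaps of 5.46 and 21.0 kb. Their promoters are shown because these neighbours are all higher in Ash1l+/- in the fits, although the Ago1 groups overlap. In edgeR Ago3 alone of them passed, only without WT replicate 2 and not after removal of the trends. The sequences are the 100 bases before the RefSeq start on GRCm38.p6, all on the minus strand, with the GC box GGGCGG or its complement CCGCCC in capitals.
Ago3, chr4:126429543-126429642: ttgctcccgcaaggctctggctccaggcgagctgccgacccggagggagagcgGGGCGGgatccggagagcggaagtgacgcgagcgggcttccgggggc
Ago1, chr4:126468584-126468683: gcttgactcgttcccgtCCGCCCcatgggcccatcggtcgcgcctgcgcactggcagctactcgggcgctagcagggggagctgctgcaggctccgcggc
Ago4, chr4:126533459-126533558: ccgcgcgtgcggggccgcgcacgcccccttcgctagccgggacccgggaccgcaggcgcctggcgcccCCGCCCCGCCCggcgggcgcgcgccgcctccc
Each holds a GC box, and the 2 in Ago4 overlap by 1 base. In the same window 24.7% of 32851 promoters hold one. Promoters were found for 9 of the 10 genes, all but Ago2, and over their 250 bases before the start 6 held GGGCGG, 5 held CCAAT and 0 held TATAAA, each searched on both strands. The shares of all promoters with these motifs were 32.7%, 33.8% and 12.4%. Tnrc6a, which rose with 5 libraries, had neither GGGCGG nor CCAAT there. GC content of the 250 bases was 73.6% in Ago3, 74.4% in Ago1 and 85.6% in Ago4, against 42.4% in Tnrc6a. No share was taken over promoters of like GC content, so the counts cannot be read against the shares of all promoters.

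Within the Argonaute family, measured as shares of its summed CPM per kilobase, Ago2 was the largest part in every library. Ago2 made up 46.6%, 39.5% and 46.3% in WT and 45.5%, 45.7% and 45.8% in Ash1l+/-. Its share differed by 1.55 percentage points between group means (two-sided exact permutation p = 1) and by -0.77 points without WT replicate 2. The Ago3 share was above every wild type in each Ash1l+/- library, at 22.8%, 24.6% and 25.4% against 20.1%, 21.1% and 22.2%, and the Ago1 share was below, at 23.9%, 22.2% and 21.4% against 25.2%, 28.0% and 24.7%. Both gave an exact permutation p of 0.1, the smallest that 3 libraries against 3 allow, and 0.2 adjusted over the 4 Argonautes. Ago4 took 6.77% to 11.4% in WT and 7.46% to 7.76% in Ash1l+/-. A share within a library does not depend on how the library is scaled. It can still depend on the length and GC trends, which were not removed from the shares. With 5 libraries the trend between genotypes was 0.35 at Ago3 and 0.04 at Ago1 on the log2 scale, beside fold changes of 0.47 and 0.13.

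**Figure D2:**
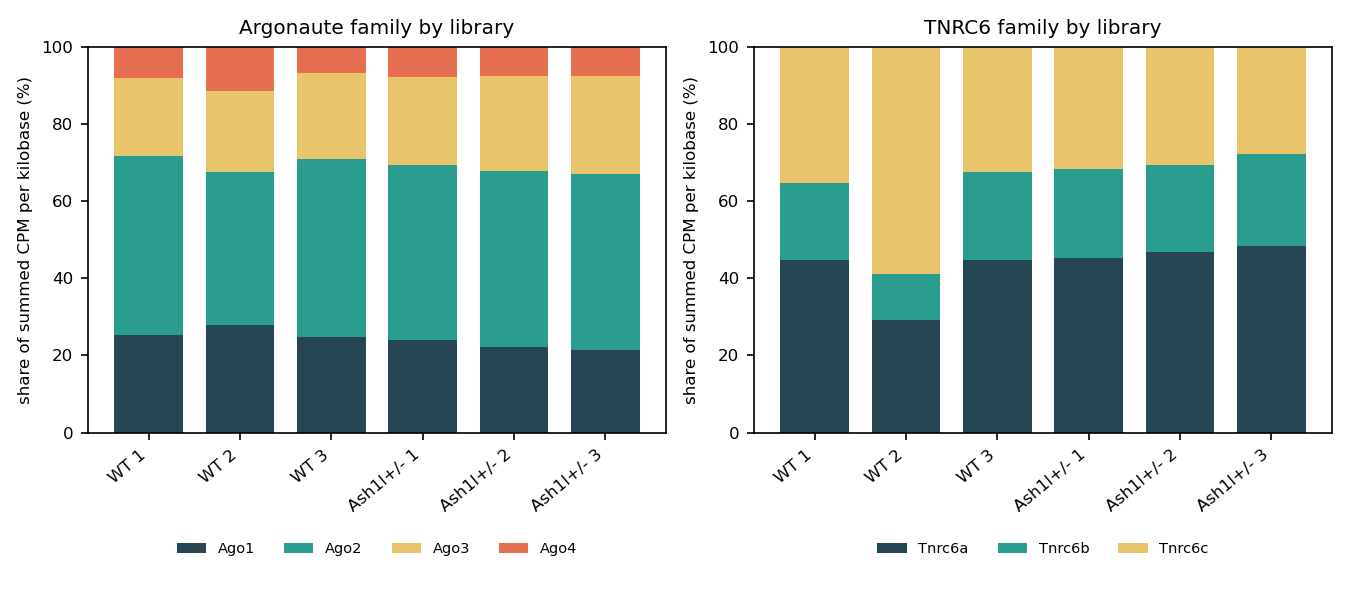
Stacked bars of the share (percent, from 0 to 100) that each gene takes of its family's summed CPM per kilobase, by library, for the 4 Argonautes on the left and the 3 TNRC6 genes on the right. Tnrc6c takes 58.8% of the TNRC6 level in WT replicate 2 and 27.7% to 35.2% in the other libraries.

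Of the TNRC6 scaffolds, Tnrc6a and Tnrc6b rose with 5 libraries and Tnrc6c did not pass. Tnrc6b (ENSMUSG00000047888; chromosome 15, 80711313 to 80941085, plus strand) was at 52.4, 30.9 and 60.6 CPM in WT and at 71.4, 71.1 and 73.1 CPM in Ash1l+/-. Every Ash1l+/- library lay above every wild type, and the spread within Ash1l+/- was small. In log2 terms the groups differed by 0.58 (SE 0.26, adjusted p = 0.385 in edgeR) with 6 libraries and 0.35 (SE 0.08, adjusted p = 0.00681) with 5. Without WT replicate 1 as well it was 0.24 (adjusted p = 0.19).

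Tnrc6a (ENSMUSG00000052707; chromosome 7, 123123885 to 123195296, plus strand) was at 63.0, 40.3 and 63.9 CPM in WT and 74.3, 79.5 and 78.9 CPM in Ash1l+/-. The groups again did not overlap, and WT replicates 1 and 3 were almost equal. In log2 terms the groups differed by 0.48 (SE 0.21, adjusted p = 0.385 in edgeR) with 6 libraries and 0.29 (SE 0.08, adjusted p = 0.0126) with 5. Leaving out WT replicate 1, WT replicate 3 or Ash1l+/- replicate 2 in addition kept the log2 fold change at 0.27 to 0.29 but ended the call, with adjusted p of 0.131, 0.0577 and 0.0611.

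Tnrc6c (ENSMUSG00000025571; chromosome 11, 117654289 to 117763439, plus strand) was at 50.1, 82.1 and 46.6 CPM in WT and 52.4, 52.6 and 45.6 CPM in Ash1l+/-. Of the 10 genes it alone was highest in WT replicate 2, and the other 5 libraries overlap. Its log2 fold change was -0.25 (SE 0.25, adjusted p = 0.568 in edgeR) with 6 libraries and 0.06 (SE 0.09, adjusted p = 0.7) with 5. Within the TNRC6 family, Tnrc6c made up 27.7% to 31.5% in Ash1l+/- against 35.2%, 58.8% and 32.3% in WT, and Tnrc6a 45.2% to 48.3% against 44.8%, 29.2% and 44.8%. For each, the exact permutation p was 0.1, the smallest possible, and 0.15 adjusted over the 3 genes. Tnrc6b made up 22.5% to 24.0% in Ash1l+/- and 20.0%, 12.0% and 22.8% in WT (exact permutation p = 0.2). The length and GC trends were not removed from these shares either.

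The processing genes did not pass in either comparison. Drosha (ENSMUSG00000022191; chromosome 15, 12824815 to 12935291, plus strand) was at 87.5, 83.9 and 79.1 CPM in WT and 76.7, 78.0 and 79.9 CPM in Ash1l+/-. On this TMM scale its 6 libraries lie within a narrow band that includes WT replicate 2. That depends on the scaling, since the TMM factor was 0.759 in WT replicate 2 and 1.05 to 1.07 elsewhere. In reads, WT replicate 2 was lowest, at 1123 against 1435 to 1771. The log2 fold change was -0.09 with 6 libraries (SE 0.13, adjusted p = 0.665 in edgeR) and -0.09 with 5 (SE 0.08, adjusted p = 0.447); with library totals in place of TMM factors it was 0.045 with 6 libraries. Dgcr8 (ENSMUSG00000022718; chromosome 16, 18253948 to 18289246, minus strand) was at 20.6, 5.83 and 18.0 CPM in WT and 19.0, 16.8 and 18.8 CPM in Ash1l+/-. WT replicate 2 held 78 reads of it against 313 to 417 elsewhere, and the other 5 libraries overlap. Its log2 fold change was 0.29 (SE 0.45, adjusted p = 0.694) with 6 libraries and -0.08 (SE 0.12, adjusted p = 0.671) with 5. Part of its span, 825 bases, is shared with Trmt2a on the opposite strand. A larger part, 4374 bases, is shared with AC084822.2, a protein-coding gene on the same strand with 0 reads in every library. How reads in shared stretches were assigned was not examined. The level of Dgcr8, and with it the ratio to Drosha given next, may therefore be too low or too high.

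Because Drosha and Dgcr8 act as a complex, their ratio was followed within each library. Drosha exceeded Dgcr8 in CPM per kilobase by 5.51, 18.7 and 5.70 times in WT and by 5.22, 6.02 and 5.52 times in Ash1l+/-. The library that stands apart is again WT replicate 2. The log2 ratio differed between groups by -0.59 (two-sided exact permutation p = 0.6) and by -0.0064 without WT replicate 2.

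Dicer1 (ENSMUSG00000041415; chromosome 12, 104687742 to 104751952, minus strand) was at 48.9, 25.8 and 49.6 CPM in WT and 55.8, 56.4 and 50.3 CPM in Ash1l+/-. The lowest Ash1l+/- library exceeded the highest wild type by little. In log2 terms the groups differed by 0.39 (SE 0.27, adjusted p = 0.444 in edgeR) with 6 libraries and 0.14 (SE 0.09, adjusted p = 0.266) with 5, and -0.11 (SE 0.07, adjusted p = 0.436) once length and GC trends were removed from the 5.

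Counted by order alone, WT replicate 2 was below every other library in 8 of the 10 genes and above in 1, against 44.5% and 40.7% of all genes tested. By the same kind of count, every Ash1l+/- library lay above every wild type in 6 of the 10 genes (Ago2, Ago3, Ago4, Tnrc6a, Tnrc6b and Dicer1) and below in 0, with 6 libraries and with 5. Over all genes tested, 19.3% were above and 19.2% below with 6 libraries, and 23.9% above and 25.3% below with 5. The median fold of the 10 genes was 1.31 with 6 libraries, 1.15 with 5 and 1.05 with 5 after removal of the trends. The medians over all genes tested were 1.00, 1.00 and 1.01. With library totals in place of TMM factors the median log2 fold change of all genes moved up by 0.13 with 6 libraries.

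**Figure D3:**
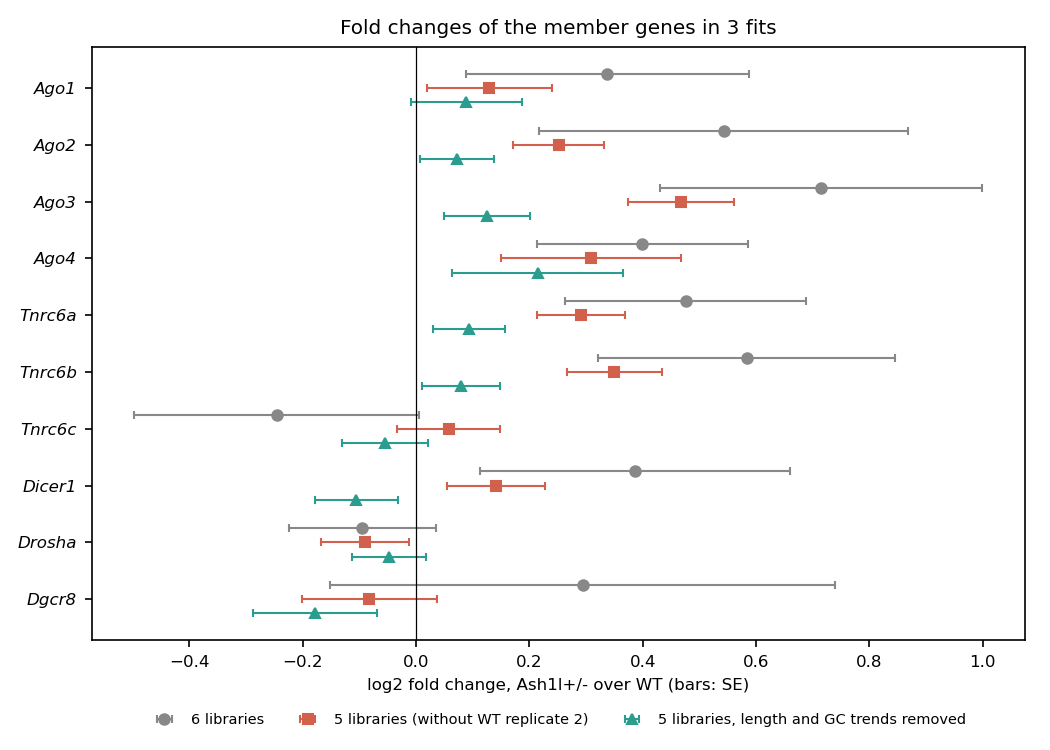
Log2 fold change of Ash1l+/- over WT (horizontal axis, bars are SE) for the 10 genes in edgeR with 6 libraries (grey circles), with 5 libraries (red squares) and with 5 libraries after removal of length and GC trends (green triangles). Ago3 goes from 0.72 to 0.47 and 0.12 in these 3 fits, and Drosha stays between -0.09 and -0.05.

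Several of the 10 genes have very long messages. The 3′ UTR in the longest coding transcript of GENCODE M21 was 12742 bases in Ago3, 11609 in Tnrc6b and 11064 in Ago2, each longer than in 99.8% or more of the tested protein-coding genes. Those of Ago1, Dicer1, Ago4, Tnrc6c, Tnrc6a and Dgcr8 ran from 4491 down to 1574 bases. Drosha, with 168 bases, had a shorter one than 92.0% of the tested genes. Ago3 also had the lowest GC content of the 10, at 41.8% of its longest transcript, while the others lay between 46.8% in Tnrc6b and 51.9% in Drosha. The 4 genes called with 5 libraries had deposited lengths of 12706 to 23677 bases, and those of Dicer1 (16750) and Tnrc6c (12843), which were not called, fall within that range.

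The libraries differed along these features over all genes, and the size of that trend at each gene's own length and GC content can be set beside its observed difference. In WT replicate 2, measured against WT replicates 1 and 3, the log2 differences observed were -0.93 for Ago3, -0.87 for Tnrc6b, -0.93 for Dicer1 and -0.65 for Tnrc6a, and the trend at these genes was -0.97, -0.93, -0.88 and -0.76. In each of these 4 genes both values are well below 0. Ago2 was lower than the trend (-1.17 against -0.75), as was Ago1 (-0.77 against -0.40), while Ago4 was less low than its trend (-0.31 against -0.46) and Drosha stood at 0.01 against -0.17. Dgcr8 and Tnrc6c departed most, with -1.72 against -0.49 and 0.77 against -0.61. No test was made on these differences, since WT replicate 2 is a single library.

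Between the genotypes in the 5 libraries the trend was 0.35 at Ago3, 0.27 at Tnrc6b, 0.20 at Tnrc6a and 0.18 at Ago2 on the log2 scale. The corresponding log2 fold changes were 0.47, 0.35, 0.29 and 0.25. After removal of the trends they were 0.12 (SE 0.08, adjusted p = 0.363 in edgeR), 0.08 (SE 0.07, adjusted p = 0.552), 0.09 (SE 0.06, adjusted p = 0.431) and 0.07 (SE 0.07, adjusted p = 0.579), in that order. Ago4 kept the largest value, 0.21 (SE 0.15, adjusted p = 0.443). Fitted changes common to long or GC-poor genes cannot be told apart here from changes of these genes themselves.

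**Figure D4:**
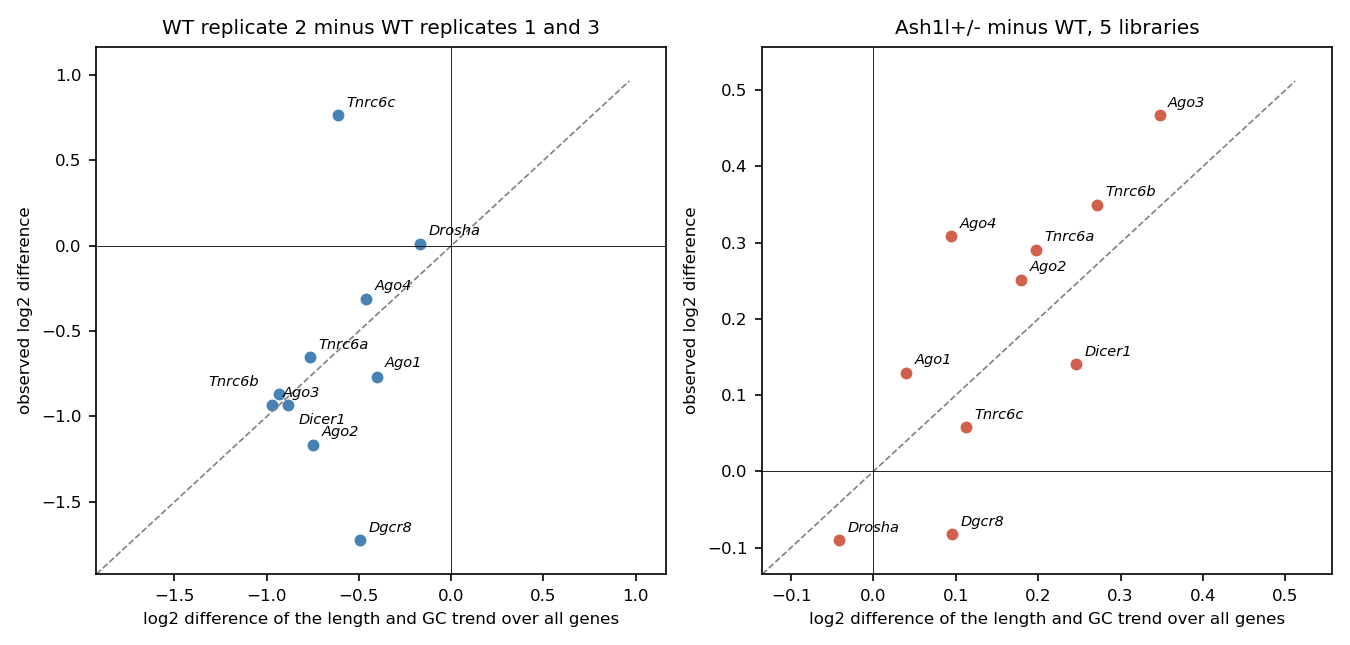
Observed log2 difference (vertical axis) against the log2 difference of the length and GC trend at the same gene (horizontal axis) for the 10 genes, for WT replicate 2 minus WT replicates 1 and 3 (left) and Ash1l+/- minus WT in 5 libraries (right); the dashed line marks equal values. Dgcr8 and Tnrc6c lie far from the line on the left, and on the right Ago3, Tnrc6b, Tnrc6a and Ago2 lie above it by about as much as their values after removal of the trends.

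Some markers of other cells also differed between the groups when WT replicate 2 was left out. With all 6 libraries 0% of all genes passed in edgeR. The marker calls below are those with 5 libraries, where 9.39% of all genes rose and 10.4% fell. Satellite glia markers had a summed CPM of 1333 to 1378 in Ash1l+/-, 1156 to 1181 in the wild types other than replicate 2 and 2388 in that library, and 4 of 5 rose with 5 libraries. Myelinating Schwann cell markers had 3830 to 4544 in Ash1l+/-, 4647 to 4811 in the same wild types and 5684 in WT replicate 2, and 2 of 5 fell. With 5 libraries 1 of 10 sensory neuron markers rose and 3 fell, 2 of 5 fibroblast markers fell, 2 of 5 erythrocyte markers fell, 1 of 5 endothelial markers rose, 1 of 4 tested central nervous system markers rose and 1 fell, and 0 of 5 macrophage and 0 of 2 tested muscle markers passed. WT replicate 2 also stood apart in the summed CPM of erythrocyte markers (628 against 31.5 to 101 in the other 5 libraries), macrophage markers (106 against 27.9 to 35.0), endothelial markers (246 against 100.1 to 122) and skeletal muscle markers (31.5 against at most 3.32). It was the lowest library in fibroblast markers (496 against 537 to 674) and in the list called central nervous system markers (154 against 198 to 264). That list was Olig1, Slc1a2, Slc17a7, Gad1, Aqp4 and Neurod2. Whether these genes are silent in the ganglion's own cells was not tested, so their sum does not measure central nervous tissue. The muscle markers Ckm, Tnnt3 and Myh1 and the central markers Olig1 and Neurod2 had 0 reads in at least 1 library. The part of these cells in the differences of the 10 genes was not tested, and in bulk tissue fewer cells of a type and less RNA per cell cannot be told apart.

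The proteins that work with this machinery were followed through a list of 69 genes, of which 68 are in the table. With 6 libraries 0 of the 64 tested passed in edgeR, as did 0% of all genes. An unadjusted p below 0.05 was found for 1 of the 64, Wtip, beside 10.6% of all genes. With 5 libraries 11 of 65 rose, 3 fell and 51 did not pass, beside the 9.39% and 10.4% of all genes. After removal of the trends 3 of the 65 rose and 2 fell, beside 3.14% and 4.15% of all genes.

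Argonautes are loaded with the help of heat shock chaperones, and 3 of the 7 loading and import genes (Hsp90aa1, Hspa8 and Ptges3) rose with 5 libraries, 0 fell and 4 did not pass, beside the 9.39% and 10.4% of all genes. Fkbp4, a co-chaperone gene among those that did not pass, had a log2 fold change of -0.17 (adjusted p = 0.0944 in edgeR). With 6 libraries the fitted values of Hspa8 and Ptges3 were below 0, at -0.026 and -0.19. Hsp90aa1, an inducible HSP90, was at 1757, 1881 and 1718 CPM in WT and at 1920, 2547 and 2376 CPM in Ash1l+/-. All Ash1l+/- libraries were above all wild types. Its log2 fold change with 5 libraries was 0.39 (SE 0.09, adjusted p = 0.00494 in edgeR), and it still passed after removal of the trends (0.29, adjusted p = 0.0265).

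Among silencing complex partners 2 of 8 rose and 1 fell with 5 libraries, beside 9.39% and 10.4% of all genes. The 2 were Fmr1 and its relative Fxr1, which had a log2 fold change of 0.32 (adjusted p = 0.0108 in edgeR). Fmr1, which encodes the RNA-binding protein FMRP, was at 54.1, 29.5 and 60.8 CPM in WT and 68.6, 74.9 and 83.4 CPM in Ash1l+/- (log2 fold change 0.40, adjusted p = 0.00484 in edgeR). Fxr2, another relative of Fmr1, was the gene that fell, at 256, 178 and 223 CPM in WT and 203, 183 and 185 CPM in Ash1l+/- (log2 fold change -0.33, adjusted p = 0.00729). In Fxr2 the lowest library is WT replicate 2. None of these passed after removal of the trends, with 0.12 (adjusted p = 0.359 in edgeR) for Fmr1, 0.08 (adjusted p = 0.46) for Fxr1 and -0.07 (adjusted p = 0.562) for Fxr2.

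Of the genes that act on let-7 or its precursors 1 of 5 tested rose and 0 fell with 5 libraries, beside 9.39% and 10.4% of all genes. It was Tut7, a terminal uridylyl transferase, at 40.8, 9.26 and 38.7 CPM in WT and 49.4, 55.0 and 54.9 CPM in Ash1l+/- (log2 fold change 0.42, adjusted p = 0.00326 in edgeR, and 0.16 with adjusted p = 0.221 after removal of the trends). Huwe1, a ubiquitin ligase gene that hosts let-7 family hairpins, was at 285, 144 and 294 CPM in WT and 361, 390 and 387 CPM in Ash1l+/- (log2 fold change 0.39, adjusted p = 0.00122, and 0.15 with adjusted p = 0.142 after removal). For both genes the groups are apart and WT replicate 2 is far below the rest.

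Downstream of TNRC6, 1 of 16 deadenylation genes rose and 1 fell with 5 libraries, and 2 of 12 genes of decapping, decay and translational repression rose. Beside these counts, and that of the turnover genes below, stand the 9.39% of all genes that rose and the 10.4% that fell. The deadenylation gene that fell was Tob2, an adaptor of the CCR4-NOT deadenylase, at 19.9, 8.29 and 17.1 CPM in WT and 13.0, 15.1 and 12.4 CPM in Ash1l+/- (log2 fold change -0.45, adjusted p = 0.0192 in edgeR). WT replicate 2 was the lowest library, so the groups overlap when it is included. Zswim8, a ubiquitin ligase subunit of target-directed microRNA decay, was the 1 of 5 turnover genes that fell, at 114, 94.7 and 105 CPM in WT and 95.9, 90.3 and 96.3 CPM in Ash1l+/- (log2 fold change -0.22, adjusted p = 0.0494). After removal of the trends neither passed, at -0.39 (adjusted p = 0.0577) and -0.03 (adjusted p = 0.816).

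The genes whose profile over the 6 libraries was most like the mean of the 10 were Zbtb25, Map4k4, Ubn1, Cramp1l and Zmym4, chosen by the smallest root mean square difference of centred log2 CPM among 11217 protein-coding genes with a mean of at least 5 CPM. That difference was 0.0152 for Zbtb25 and 0.0391 for Zmym4. Map4k4, a kinase gene, was at 137, 84.1 and 136 CPM in WT and 160, 159 and 153 CPM in Ash1l+/-. The shared profile is set mostly by WT replicate 2, where the mean of the 10 genes was 0.63 lower on the log2 scale than their mean over the 6 libraries (-0.63).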

How the data were processed

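The 10 genes and all lists were chosen with earlier results of these data known. The authors deposited raw read counts per gene, made with HISAT2 2.0.5 and featureCounts 1.5.0-p3 on GRCm38, per the submitters' processing notes. The authors' deposited FPKM equal the counts divided by gene length and 1 constant per library, and served as an alternative. Per the labels' protocols, Trizol served for RNA extraction and a NEBNext Ultra kit for library preparation. Total counts per library were 17209294 to 20545722.

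Groups came from the sample titles. Counts were filtered with filterByExpr and fitted across all genes with edgeR 4.0.16 (TMM, quasi-likelihood test, genotype as the only term, Benjamini-Hochberg, threshold 0.05) in R 4.3.3, for 6 libraries and for the 5 without WT replicate 2. The script was tested on simulated data. SE is the log2 fold change over the root of F. For trend removal, each library's deviation from the gene mean was smoothed by loess (span 0.3) along log2 deposited length and then GC of the longest GENCODE M21 transcript, and entered as an offset. Alternatives were RLE, upper-quartile and total-count scaling, other filters, DESeq2 1.42.0, limma 3.58.1 (voom with and without quality weights, and log2(FPKM + 1) and log2(FPKM + 0.1)), the replicate number as a block, and each library left out. Shares were tested by exact permutation with scipy 1.17.1. Named genes were all 10 members, Ash1l, up to 4 listed pathway genes per direction with the largest fold among those called with 5 libraries and at 1 CPM or more on average, and the 5 genes most alike. Wtip and the genes given by name in the closing section were chosen after their values were seen. Hspa8, Fkbp4 and Fxr1 also fall outside the rule for named genes.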

Additional observations from a re-analysis of the deposited data

How the results depend on the processing

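With 6 libraries the count of 0 of the 10 genes changed to 4 without WT replicate 2 and to 4 in limma-voom with quality weights, which gave that library a weight of 0.0274; leaving out a library gave 0 to 4. With 5 libraries the count of 4 became 0 on log2(FPKM + 1), 0 on log2(FPKM + 0.1), and 0 with length and GC trends removed, with or without the replicate block; leaving out a further library gave 0 to 4. Over all genes, 6 libraries gave 35 in DESeq2, 4179 with quality weights and 0 to 3252 with a library left out. With 5, log2(FPKM + 1) gave 1528, log2(FPKM + 0.1) 1587, trend removal 1196, trend removal with the replicate block 1472, and leaving out a library 796 to 4198, against 3252. Listed pathway genes called with 6 libraries were 21 with quality weights and 0 to 14 with a library left out. With 5 they were 3 on each FPKM scale, 5 with trends removed, 8 with trends removed and the replicate block, and 3 to 22 with a library left out, against 14.

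Directions turned as follows. Tnrc6c was at 0.039 with quality weights and from -0.39 to 0.058 with a library left out of the 6; with 5 it was at -0.055 with trends removed, -0.087 with trends removed and the replicate block, and from -1.78e-05 to 0.12 with a library left out. Dicer1 with trends removed was at -0.089 with 6 libraries (-0.090 with the replicate block) and -0.11 with 5 (-0.12 with the block). Drosha was at 0.045 with library totals and 6 libraries. Dgcr8 with 6 was at -0.12 with quality weights and from -0.082 to 0.61 with a library left out, and with 5 from -0.18 to 0.015. The Ago2 share difference ran from -0.77 to 2.77 points with a library left out. The cause was not tested.

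Same-numbered libraries did not deviate together (correlations of deviations 0.00052, -0.0317 and 0.0378). Each deviation was taken from a group mean, which for WT includes WT replicate 2. The check therefore cannot tell whether the numbers pair the libraries. The replicate block alone called 0 of the 10 genes with 6 libraries and 4 with 5. Over all genes it called 0 with 6 libraries, and with 5 it called 3982 against 3252 without the block. Depth limits Ago4, with 74 to 198 reads per library, and Dgcr8 in WT replicate 2, with 78 reads.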

Other observations

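Mir99ahg, a host transcript of a let-7 family hairpin, had 438 reads in WT replicate 2 and 18 to 64 in the other 5 libraries. In CPM it stood at 32.7 in WT replicate 2, at 1.93 and 0.933 in WT replicates 1 and 3, and at 1.24, 2.25 and 3.56 in Ash1l+/- replicates 1, 2 and 3. Its log2 fold change was -2.33 (SE 1.34, adjusted p = 0.398 in edgeR) with 6 libraries and 0.69 (SE 0.40, adjusted p = 0.24) with 5, so the direction rests on that library.

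Among the 65 listed pathway genes tested, 5 passed in the 5 libraries after removal of length and GC trends. Of these 3 rose and 2 fell, beside 3.14% and 4.15% of all genes. Hsp90aa1, the HSP90 co-chaperone gene Ptges3 and the cap-binding gene Ncbp1 were higher in Ash1l+/-, with log2 fold changes of 0.29, 0.26 and 0.27. Dis3l2, an exonuclease gene for uridylated let-7 precursors, and Snd1, a nuclease gene of the silencing complex, were lower, at -0.34 (adjusted p = 0.0325 in edgeR) and -0.26 (adjusted p = 0.0208). Without that removal Dis3l2 was at -0.07 (adjusted p = 0.678) and Snd1 at -0.15 (adjusted p = 0.176). With all 6 libraries and no removal, Dis3l2 was at 0.01 (adjusted p = 0.971), Snd1 at -0.13 (adjusted p = 0.572), Ncbp1 at 0.074 (adjusted p = 0.818) and Hsp90aa1 at 0.35 (adjusted p = 0.385), so the direction of Dis3l2 turned. In the same fit Ptges3, at 300.5 CPM in WT replicate 2 and 120.4 to 167 elsewhere, turned as well, to -0.19 (adjusted p = 0.748).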
